A study of Mus musculus with 10 samples.

Results

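The 58 genes described here build and run the mitotic spindle. They were taken as a list of gene symbols, which was drawn up with earlier results of these data known, and all 58 were found among the 21792 Ensembl genes with deposited values in the kidney cortex of 10 mice. The list was divided here into 9 roles, and by the stage of mitosis at which the product is best known to act into 32 early genes, 13 late genes and 13 genes of both or other stages. The mice were wild-type male C57BL/6 animals of 8 weeks. The 4 sham mice (tags B607, B634, B636 and H249) received PBS, and the 6 mice with aristolochic acid nephropathy (AAN; tags A483, B614, B630, B639, B642 and B666) were given aristolochic acid, a plant toxin taken up by the proximal tubule, as 1 intraperitoneal dose of 5 mg/kg. All kidneys were taken at day 28, each library came from 1 mouse, and the study used this model of kidney scarring to ask how tubule cells become arrested before division. Each mouse carries a tag of its own, and no sequencing batch is given in the sources used here.

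During mitosis, condensin packs the chromosomes, kinetochores attach them to spindle fibres, and the spindle checkpoint holds back separation until every chromosome is attached. The anaphase promoting complex then marks cyclin B and securin for destruction, separase opens the cohesin rings, and the central spindle guides the division of the cell. Most of these genes are transcribed in the G2 phase and in mitosis and are silent in resting cells. The tubule cells of a healthy adult kidney divide rarely, and cells that have entered the cycle after injury can halt before division.

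Paired-end sequencing gave about 15800000 to 17500000 fragments per sham mouse and 13400000 to 16500000 per AAN mouse, as recovered from the steps between low values. Levels are in FPKM, which are fragments scaled to transcript length and to the total mapped per library, so levels of different genes can be compared per length. The share of summed FPKM in mitochondrial genes ranged over the sham mice from 39.5% to 61.4% and over the AAN mice from 21.4% to 55.0%, and every other level was measured beside this varying share. Groups were compared with limma on values of log2(FPKM + 0.1). This covered the 17129 genes whose mean over the mice reached 0.1 FPKM, and calling a gene required both a 2-fold change and an adjusted p no greater than 0.05. The median log2 fold change of all genes tested was 0.75, so most genes were higher in AAN mice in these values. In kidney tissue, a change in the number of cells of a type and a change in the RNA per cell cannot be told apart.

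The mitotic genes were low in the sham kidneys and were higher in the AAN kidneys. Of the 58 genes, 57 passed the filter on low values, and 52 of these 57 (91.2%) were higher in AAN mice, where 35.8% of all genes tested were. None of the 57 was lower, against 3.43% of all genes tested. The filter was passed on the sham mean alone by 47 genes, of which 42 were higher with a median log2 fold change of 2.59. The other 10 (*Ncapg*, *Melk*, *Cenpf*, *Nuf2*, *Ttk*, *Kif15*, *Kif18a*, *Kif2c*, *Hmmr* and *Prc1*) passed only through the AAN mice, so that a difference was built into their selection. The median log2 fold change was 2.57 over the 57 genes and ranged from -0.10 (*Kif20b*) to 3.80 (*Ube2c*). The 52 genes had adjusted p-values from limma between 1.81e-07 and 0.00555 and standard errors between 0.20 and 0.52. In 52 of the 57 genes every AAN mouse was above every sham mouse, as in 40.3% of all genes tested. The 5 genes that were not called were *Bub3*, *Cks2*, *Kif20b*, *Pttg1* and *Spc25*. The remaining gene, *Kif14*, was under the filter but also had separate groups.

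The median of the 58 levels lay between 0.176 and 0.255 FPKM in the 4 sham mice. In the AAN mice it lay between 1.3 and 2.59 FPKM, lowest in B630 and highest in B642. At least 1 FPKM was reached by 10 genes in each sham mouse and by 38 to 51 genes in the AAN mice. Sham values of the low genes rested on few fragments. For *Mki67* they stood for at most 57.9 fragments per mouse on average, for *Top2a* for 27.3 and for *Melk* for 2.04, counted as if spread along all exons. An exact 0 occurred for up to 5 of the genes in a sham mouse (B634) and for none in an AAN mouse. It allows up to 3 fragments, which is 0.0637 FPKM for *Melk* in B634, and these limits cover counting error only.

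**Figure D1:**
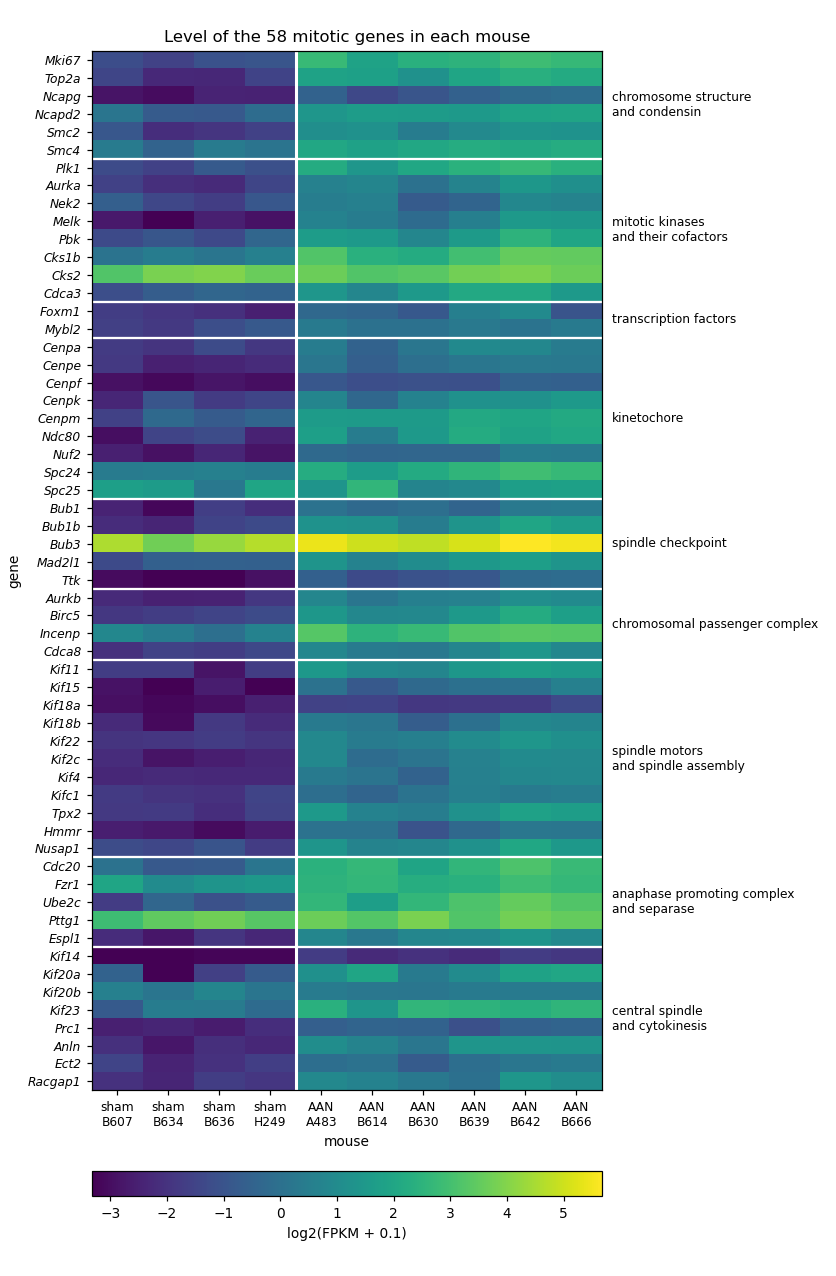
Level of each of the 58 genes in each of the 10 mice as log2(FPKM + 0.1), with the genes in rows ordered by role and the mice in columns, 4 sham mice to the left of the white line and 6 AAN mice to the right. Most rows are dark in the sham mice and lighter in all AAN mice, whereas *Bub3*, *Cks2* and *Pttg1* are bright in both groups.

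The size of these changes depended on scaling and pseudocount. Over all genes, 6126 were higher and 588 lower in the values as deposited, 3261 and 1801 after rescaling each mouse to the median of ratios, and 2232 and 2157 after quantile normalization. Of the 57 mitotic genes, 48 were higher and 0 lower after the median of ratios, which brought the median of all genes to 0.06, and 37 were higher and 1 lower (*Kif20b*) after quantile normalization, which brought it to -0.13. A pseudocount of 1, which compresses low levels, left 34 higher and 0 lower, where 17% of all genes tested were higher. Relative to the median of all genes in the deposited values, 48 of the 57 were still at least 2-fold higher, as were 16.7% of all genes tested. Leaving out any 1 mouse gave 52 to 54 higher.

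**Figure D2:**
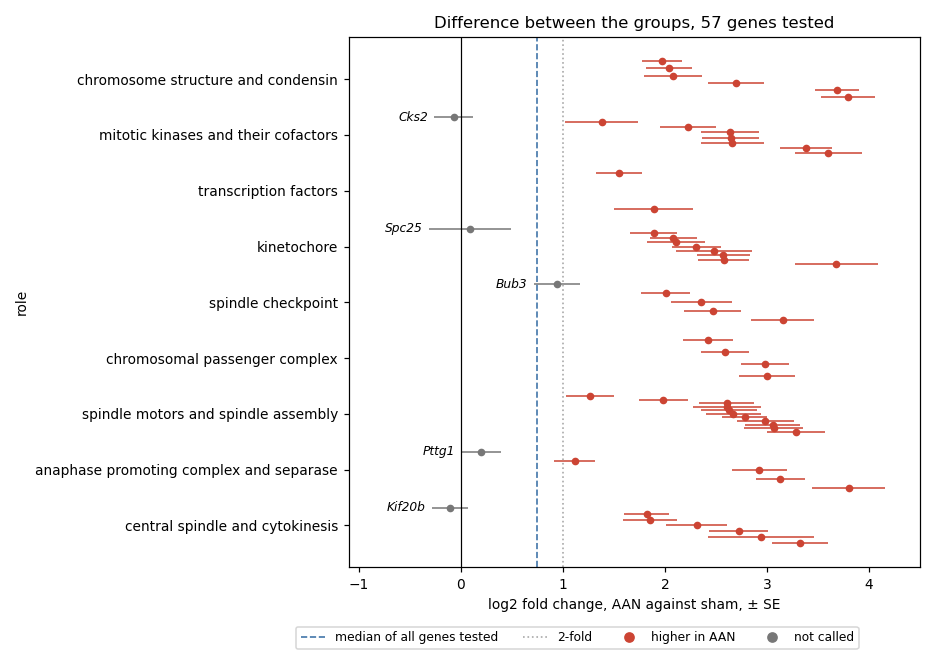
Log2 fold change of AAN against sham mice with its standard error for the 57 genes tested, by role, from limma on 4 sham and 6 AAN mice. The dashed line marks the median of all genes tested at 0.75 and the dotted line a 2-fold change, and the 5 grey points are the genes that were not called.

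Promoters of mitotic genes are known for 2 short elements near the start of transcription, the CHR (cell cycle genes homology region), where the MuvB complexes bind, and the CCAAT box of the factor NF-Y. Windows of 300 bases, from 250 before to 50 after the annotated start, were available from RefSeq (GRCm38.p6) for 50 of the 58 genes, with the first listed window taken where a gene has several. The RefSeq start lay within 50 bases of the outer end of the GENCODE gene for 35 of the 50 genes and over 250 bases from it for 7, so that some windows cover transcribed sequence. The letters TTTGAA of the CHR, read on both strands like the other motifs, none of which contains another, were in 35 of the 50 windows (70.0%), and in 18.1% of the windows of all 27025 genes with one. CCAAT was in 37 of the 50 (74.0%) and in 37.9% of all, at least 2 copies of CCAAT in 48.0% against 12.2%, and both elements together in 30 of the 50 (60%) against 7.12%. Among the 44 called genes with a window 31 held TTTGAA (70.5%), and among the 5 genes that were not called 3 did (60%), a difference that was not tested. The letters GGCGGGAA of an E2F site were in 0 of the 50 windows and in 2.24% of all. A match is a description of the letters and not of a bound site.

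The stretch of 150 bases before the RefSeq start is shown for 4 genes, *Cdc20* and *Ube2c* that rose strongly and *Bub3* and *Cks2* that were not called, 5′ to 3′ on the strand of the gene, with TTTGAA and CCAAT on either strand in capitals (TTCAAA and ATTGG are the reverse strand).
*Cdc20*, chr4:118437344-118437493, minus strand: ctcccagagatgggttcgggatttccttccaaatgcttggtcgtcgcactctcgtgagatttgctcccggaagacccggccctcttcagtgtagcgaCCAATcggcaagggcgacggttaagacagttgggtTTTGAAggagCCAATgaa
*Ube2c*, chr2:164769779-164769928, plus strand: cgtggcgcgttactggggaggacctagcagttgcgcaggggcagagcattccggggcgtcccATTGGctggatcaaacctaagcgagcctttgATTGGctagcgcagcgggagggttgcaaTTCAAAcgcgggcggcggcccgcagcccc
*Bub3*, chr7:131560220-131560369, plus strand: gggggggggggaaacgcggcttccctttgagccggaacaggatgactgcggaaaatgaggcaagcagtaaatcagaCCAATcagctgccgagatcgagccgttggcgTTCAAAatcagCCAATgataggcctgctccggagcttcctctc
*Cks2*, chr13:51645082-51645231, plus strand: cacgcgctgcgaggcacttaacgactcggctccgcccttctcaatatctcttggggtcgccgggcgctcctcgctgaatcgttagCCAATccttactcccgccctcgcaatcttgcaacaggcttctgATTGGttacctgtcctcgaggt
In *Cdc20* and *Ube2c* the CHR letters begin 18 and 29 bases before the start, and in *Bub3*, which moved by less than 2-fold, 43 bases before it between 2 CCAAT boxes. The RefSeq start of *Bub3* lies 148 bases inside the GENCODE gene, so that nearly all of its stretch is within that gene. The *Cks2* stretch holds 2 CCAAT boxes and no TTTGAA.

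All 6 genes of chromosome structure and condensin were higher in AAN mice, with a median log2 fold change of 2.39. One of them, *Ncapg*, passed the filter only through the AAN mice. *Mki67* (ENSMUSG00000031004, GRCm38 chromosome 7 from 135689784 to 135716361, minus strand) encodes the proliferation marker Ki-67, which coats mitotic chromosomes. It was at 0.340, 0.244, 0.380 and 0.421 FPKM in the sham mice and between 3.55 and 7.25 FPKM with a median of 5.96 in the AAN mice, a log2 fold change of 3.69 (SE 0.22, adjusted p = 1.81e-07 from limma). *Top2a* (ENSMUSG00000020914, chromosome 11 from 98992943 to 99024189, minus strand), the topoisomerase that untangles sister chromatids, was at 0.266, 0.106, 0.102 and 0.249 FPKM in the sham mice and between 2.26 and 5.02 with a median of 3.69 in the AAN mice. Its log2 fold change was 3.80 (SE 0.26, adjusted p = 4.19e-07 from limma). For both genes the lowest AAN mouse was far above the highest sham mouse. The 4 condensin genes *Ncapg*, *Ncapd2*, *Smc2* and *Smc4* had log2 fold changes between 1.97 (*Smc4*) and 2.70 (*Smc2*). *Ncapg*, *Ncapd2* and *Smc4* were not called after quantile normalization, nor *Ncapg* with a pseudocount of 1.

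Of the 8 mitotic kinases and their cofactors, 7 were higher, with a median log2 fold change of 2.64. *Plk1*, the kinase that drives entry into mitosis and spindle assembly, was at 0.317, 0.234, 0.487 and 0.356 FPKM in the sham mice and between 2.58 and 6.40 with a median of 4.86 in the AAN mice (log2 fold change 3.39, SE 0.25, adjusted p = 6.6e-07 from limma). The highest fold change of the group was that of *Melk*, a kinase of dividing cells that passed the filter only through the AAN mice. It was at 0.0524, 0, 0.0743 and 0.0371 FPKM in the sham mice and between 0.789 and 2.71 with a median of 1.45 in the AAN mice (log2 fold change 3.60, SE 0.33). *Aurka*, which matures the spindle poles, was at 0.236, 0.130, 0.110 and 0.266 FPKM in the sham mice and between 0.914 and 2.61 with a median of 1.56 in the AAN mice. The groups of all 3 kinases were separate. The kinase gene *Pbk* rose by 2.66 on the log2 scale and *Cdca3*, a trigger of mitotic entry, by 2.23. *Nek2*, a kinase of centrosome separation, had the smallest change among the called genes of this group (1.38, SE 0.36, adjusted p = 0.00555 from limma), and its groups overlapped, as AAN mouse B630 at 0.496 FPKM was below sham mouse B607 at 0.565. *Nek2* was not called with a pseudocount of 1, after the median of ratios or after quantile normalization.

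The 2 CKS proteins are small subunits that help cyclin-dependent kinases to bind their substrates. *Cks1b* was at 0.964, 1.29, 1.03 and 1.41 FPKM in the sham mice and between 4.54 and 11.5 with a median of 8.51 in the AAN mice, a log2 fold change of 2.64 (SE 0.28, adjusted p = 8.54e-06 from limma). *Cks2* (ENSMUSG00000062248, chromosome 13 from 51645232 to 51650660, plus strand) was at 9.24, 14.5, 15.6 and 12.1 FPKM in the sham mice and between 9.30 and 14.9 with a median of 12.5 in the AAN mice. Its groups overlapped, and its log2 fold change was -0.07 (SE 0.19, adjusted p = 0.754 from limma), against -0.83 (adjusted p = 0.00877) after the median of ratios and -0.61 (adjusted p = 0.0385) after quantile normalization. *Cks2* had the highest AAN mean of the group and was already at that level in the sham kidneys. Stretches of 236 to 240 bases of *Cks2* occur at 98.3% to 100% identity in 3 other annotated genes (*Gm12891*, *Gm15452* and *Gm19945*) that were not analysed here, and the sources used here do not state how fragments of such copies were assigned, so its level is uncertain.

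Both transcription factors were higher. *Mybl2* (B-Myb), which activates mitotic genes with MuvB, was at 0.225, 0.181, 0.348 and 0.468 FPKM in the sham mice and between 0.913 and 1.20 with a median of 1.06 in the AAN mice (log2 fold change 1.55, SE 0.23, adjusted p = 0.000118 from limma). *Foxm1*, which acts with the same complex later in the cycle, was at 0.207, 0.166, 0.140 and 0.0732 FPKM in the sham mice and between 0.410 and 1.89 with a median of 0.688 in the AAN mice (log2 fold change 1.89, SE 0.39, adjusted p = 0.00128 from limma). *Mybl2* was nearly even among the AAN mice, whereas *Foxm1* had the widest spread of all 58 genes, with its highest AAN value (B642) 4.61 times its lowest (B666). Neither gene was called after quantile normalization or with a pseudocount of 1, nor *Mybl2* after the median of ratios.

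Kinetochore genes were higher in 8 of 9 cases, with a median log2 fold change of 2.31. *Cenpf* and *Nuf2* passed the filter only through the AAN mice. The outer kinetochore holds the spindle fibre through the NDC80 complex, made of NDC80, NUF2, SPC24 and SPC25. *Ndc80* (ENSMUSG00000024056, chromosome 17 from 71496100 to 71526857, minus strand) was at 0.0259, 0.258, 0.331 and 0.0827 FPKM in the sham mice and between 1.27 and 4.51 with a median of 3.44 in the AAN mice, a log2 fold change of 3.68 (SE 0.41, adjusted p = 1.23e-05 from limma). *Nuf2* had a log2 fold change of 2.57. *Spc24* had the highest AAN mean of the kinetochore genes and was at 1.23, 1.31, 1.40 and 1.26 FPKM in the sham mice and between 3.02 and 7.52 with a median of 5.19 in the AAN mice (log2 fold change 1.89, SE 0.23, adjusted p = 2.67e-05 from limma). *Spc25*, the remaining subunit, was not called. It was at 3.31, 2.99, 1.12 and 3.85 FPKM in the sham mice and between 1.56 and 5.89 with a median of 2.81 in the AAN mice, with overlapping groups and a log2 fold change of 0.09 (SE 0.40, adjusted p = 0.856 from limma), which was -0.65 after the median of ratios and -0.85 after quantile normalization. Its highest AAN value was in B614, in which *Ndc80* and *Spc24* were lowest. The centromere genes *Cenpa*, *Cenpe*, *Cenpf*, *Cenpk* and *Cenpm* had log2 fold changes between 2.08 (*Cenpf*) and 2.57 (*Cenpm*), all with separate groups. *Spc24*, *Cenpa* and *Cenpf* were not called after quantile normalization, nor *Cenpa*, *Cenpe*, *Cenpf* and *Nuf2* with a pseudocount of 1.

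Among the 5 genes of the spindle checkpoint, 4 were higher, with a median log2 fold change of 2.35. Of these, *Ttk* passed the filter only through the AAN mice. *Bub1b*, which encodes the checkpoint protein BUBR1, was at 0.118, 0.0914, 0.251 and 0.301 FPKM in the sham mice and between 1.28 and 3.78 with a median of 2.34 in the AAN mice (log2 fold change 3.15, SE 0.31, adjusted p = 4.72e-06 from limma). *Ttk* (MPS1), the kinase that starts the checkpoint signal, rose by 2.47 on the log2 scale, *Bub1* by 2.35 and *Mad2l1* by 2.01. *Ttk* and *Bub1* were not called with a pseudocount of 1, nor *Mad2l1* after quantile normalization. *Bub3* (ENSMUSG00000066979, chromosome 7 from 131560222 to 131571895, plus strand) encodes the platform that carries BUB1 and BUBR1 and had the highest level of all 58 genes in both groups. It was at 23.4, 13.1, 19.6 and 25.6 FPKM in the sham mice and between 28.0 and 50.9 with a median of 38.8 in the AAN mice. The groups of *Bub3* were separate, and its log2 fold change of 0.94 (SE 0.23, adjusted p = 0.00376 from limma) stayed just under the 2-fold limit and close to the median of all genes. It passed the limit when sham mouse B607 or H249 or AAN mouse B630 was left out or the mice with B tags were taken alone, and was at 0.18 after the median of ratios.

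All 4 genes of the chromosomal passenger complex, which corrects wrong attachments and then moves to the central spindle, were higher, with a median log2 fold change of 2.78. *Incenp*, the scaffold, had the highest AAN mean and was at 1.70, 1.27, 0.869 and 1.47 FPKM in the sham mice and between 5.48 and 10.1 with a median of 9.48 in the AAN mice (log2 fold change 2.59, SE 0.23, adjusted p = 2.55e-06 from limma). *Birc5* (survivin) was at 0.178, 0.212, 0.262 and 0.320 FPKM in the sham mice and between 1.71 and 4.48 with a median of 2.68 in the AAN mice (log2 fold change 3.0, SE 0.28, adjusted p = 2.95e-06 from limma). *Aurkb*, the kinase of the complex, was at 0.108, 0.0760, 0.0836 and 0.177 FPKM in the sham mice and between 1.03 and 2.09 with a median of 1.54 in the AAN mice, a log2 fold change of 2.98. *Cdca8* (borealin), the last subunit, rose by 2.42 on the log2 scale. The groups were separate for all 4 subunits, and the lowest AAN mouse was B630 for *Cdca8* and B614 for the others.

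Spindle motors and assembly factors were higher in 11 of 11 cases, where 35.8% of all genes tested were, with a median log2 fold change of 2.67. The groups were separate in each, as in 40.3% of all genes tested. Only 7 of the 11 passed the filter on the sham mean. *Kif15*, *Kif18a*, *Kif2c* and *Hmmr* passed through the AAN mice only, so that a difference was built into their selection. *Kif11* encodes the kinesin Eg5, which pushes the spindle poles apart, and had the highest AAN mean of the group and its largest change on the log2(FPKM + 0.1) scale. By the ratio of mean FPKM (14.5) it was below *Kif15* (36.7), *Kif2c* (17.8) and *Hmmr* (17.1). It was at 0.213, 0.209, 0.0378 and 0.214 FPKM in the sham mice and between 1.59 and 3.17 with a median of 2.66 in the AAN mice (log2 fold change 3.28, SE 0.29, adjusted p = 2.05e-06 from limma). *Tpx2*, which seeds spindle fibres and activates Aurora A, rose by 3.07 on the log2 scale and *Kif2c* (MCAK), which removes wrongly attached fibres, by 3.05. The motors *Kif15*, which works beside Eg5, *Kif22* and *Kif4*, which both bind chromosome arms, rose by 2.98, 2.78 and 2.67. *Hmmr* and *Nusap1*, whose products bind spindle fibres, rose by 2.63 and 2.60. *Kifc1*, a motor that draws the poles together, rose by 1.98, but shares 2280 bases at 95.9% identity with *Kifc5b*, so the division of their fragments is uncertain. The smallest change was that of *Kif18a*, a motor that limits fibre length at the kinetochore, which was at 0.0288, 0.0106, 0.0256 and 0.0715 FPKM in the sham mice and between 0.174 and 0.294 with a median of 0.213 in the AAN mice. *Kif18a* passed the filter only through the AAN mice, so that a difference was built into its selection. Its log2 fold change was 1.27 (SE 0.23) and was 0.95 after the median of ratios and -0.089 after quantile normalization, and it was not called there or with a pseudocount of 1. With that pseudocount *Kif15*, *Kif18b*, *Kifc1* and *Hmmr* were not called either, nor was *Kifc1* after quantile normalization. Its relative *Kif18b* was at 0.108, 0.0170, 0.180 and 0.115 FPKM in the sham mice and between 0.522 and 1.69 with a median of 1.14 in the AAN mice, a log2 fold change of 2.61.

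Genes of the anaphase promoting complex and separase were higher in 4 of 5 cases, with a median log2 fold change of 2.93. *Ube2c* (ENSMUSG00000001403, chromosome 2 from 164769898 to 164778822, plus strand), the ubiquitin-conjugating enzyme of the complex, had the largest log2 fold change of the 57 genes tested on the log2(FPKM + 0.1) scale, level with *Top2a* to 2 decimals. The ratio of its mean FPKM was 17.2, below the 42.9 of *Ttk*, the 41.9 of *Melk* and the ratios of 6 other genes, all 8 with a lower sham mean. It was at 0.206, 0.681, 0.372 and 0.502 FPKM in the sham mice and between 3.23 and 11.7 with a median of 7.51 in the AAN mice (log2 fold change 3.80, SE 0.35, adjusted p = 3.3e-06 from limma). The complex is switched on by CDC20 in mitosis and by CDH1, encoded by *Fzr1*, at mitotic exit and in resting cells. *Cdc20* was at 0.944, 0.467, 0.502 and 1.03 FPKM in the sham mice and between 3.73 and 8.88 with a median of 6.11 in the AAN mice (log2 fold change 2.93, SE 0.27, adjusted p = 3.27e-06 from limma). *Fzr1* was at 3.76, 1.92, 2.40 and 2.70 FPKM in the sham mice and between 4.74 and 7.18 with a median of 5.80 in the AAN mice. Its log2 fold change was 1.11 (SE 0.20, adjusted p = 0.000463 from limma), and it was not called after either rescaling, with a pseudocount of 1 or without sham mouse B634.

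Of separase and its inhibitor securin, only the gene of separase was called. *Espl1* (separase) was at 0.121, 0.0476, 0.165 and 0.101 FPKM in the sham mice and between 1.12 and 2.41 with a median of 1.69 in the AAN mice (log2 fold change 3.13, SE 0.24, adjusted p = 7.15e-07 from limma), with separate groups. *Pttg1* (ENSMUSG00000020415, chromosome 11 from 43420250 to 43426251, minus strand), which encodes securin, had the highest AAN mean of this group and was at 7.19, 11.1, 13.1 and 10.1 FPKM in the sham mice and between 9.35 and 14.6 with a median of 12 in the AAN mice. Its groups overlapped, and its log2 fold change was 0.20 (SE 0.20, adjusted p = 0.394 from limma), which was -0.56 after the median of ratios and -0.38 after quantile normalization.

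Of the 8 genes of the central spindle and cytokinesis, 6 of the 7 tested were higher, with a median log2 fold change of 2.31. Among the 7, *Prc1* passed the filter only through the AAN mice. *Kif23* (MKLP1), which bundles the central spindle with RACGAP1, had the highest AAN mean and was at 0.484, 1.27, 1.24 and 0.780 FPKM in the sham mice and between 2.51 and 5.93 with a median of 5.31 in the AAN mice (log2 fold change 2.31, SE 0.30, adjusted p = 4.46e-05 from limma). *Anln*, which encodes the contractile ring protein anillin, was at 0.137, 0.0466, 0.134 and 0.101 FPKM in the sham mice and between 1.06 and 2.51 with a median of 2.23 in the AAN mice (log2 fold change 3.33, SE 0.27, adjusted p = 1.23e-06 from limma). Both were separate between the groups. *Racgap1* rose by 2.72 on the log2 scale, *Ect2*, the activator of RhoA at the division plane, by 1.85, and *Prc1*, which cross-links the fibres, by 1.82. Neither *Ect2* nor *Prc1* was called with a pseudocount of 1 or after quantile normalization. *Kif14*, a motor of the midbody, was at 0, 0, 0.00876 and 0.00874 FPKM in the sham mice and between 0.110 and 0.205 with a median of 0.160 in the AAN mice, and was not tested.

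The kinesin-6 motors *Kif20a* and *Kif20b* both act in cytokinesis. *Kif20a* was at 0.617, 0, 0.224 and 0.495 FPKM in the sham mice and between 1.21 and 3.89 with a median of 2.84 in the AAN mice (log2 fold change 2.94, SE 0.52, adjusted p = 0.000463 from limma). *Kif20b* (ENSMUSG00000024795, chromosome 19 from 34922361 to 34975745, plus strand) was at 1.41, 1.03, 1.63 and 1.04 FPKM in the sham mice and between 1.04 and 1.24 with a median of 1.18 in the AAN mice. It had the narrowest range of the 58 genes among the AAN mice, its highest value being 1.19 times its lowest, and its log2 fold change was -0.10 (SE 0.18, adjusted p = 0.622 from limma), against -0.81 (adjusted p = 0.00175) after the median of ratios and -1.24 (adjusted p = 9.41e-05) after quantile normalization.

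The 5 genes that were tested and not called all had a sham mean of at least 1 FPKM. Of the 10 genes with a sham mean of at least 1 FPKM (*Smc4*, *Cks1b*, *Cks2*, *Spc24*, *Spc25*, *Bub3*, *Incenp*, *Fzr1*, *Pttg1* and *Kif20b*), 5 were called and 5 were not, with a median log2 fold change of 1.03. Of all 10274 genes tested with such a sham mean 22.6% were higher, with a median of 0.54. Of all 6855 genes tested with a lower sham mean 55.4% were higher, with a median of 1.21. All 47 mitotic genes tested with such a mean were higher, with a median of 2.63, and 10 of them passed the filter only through the AAN mice. For genes at these levels the filter, which some passed only through the AAN mice, favours a rise, whereas the pseudocount makes fold changes smaller. No conclusion is therefore drawn from that comparison.

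To compare related genes within the same libraries, the log2 difference of 6 pairs was taken within each mouse and tested by exact permutation (two-sided) over all 210 assignments of the mice, whose smallest p is 0.00476, adjusted over the 6 pairs. Within the mice, *Cdc20* was below *Fzr1* by -1.77 ± 0.32 in sham mice (SD, n = 4) and level with it at 0.04 ± 0.22 in AAN mice (SD, n = 6). The difference of 1.81 (SE 0.18) had an adjusted p of 0.00571 in the exact test. *Cks2* exceeded *Cks1b* by 3.34 ± 0.35 in sham mice and by 0.62 ± 0.37 in AAN mice, a change of -2.72 (SE 0.23). *Bub1b* was below *Bub3* by -6.17 ± 0.41 and -3.95 ± 0.25, a change of 2.21 (SE 0.23). *Kif20a* was below *Kif20b* in sham mice (-1.98 ± 1.21) and above it in AAN mice (1.07 ± 0.62), a change of 3.05 (SE 0.66). *Kif18b* against *Kif18a* changed by 1.34 (SE 0.30). These 4 changes had the same adjusted p of 0.00571 in the exact test, and in all 5 pairs every AAN mouse lay beyond every sham mouse. The exact test used the same values as the limma comparison of these genes above and is not separate support. *Kif18a* passed the filter only through the AAN mice, and its sham values were all below the pseudocount of 0.1. For *Aurkb* against *Aurka* the change of 0.34 (SE 0.19) did not pass the test (adjusted p = 0.143 in the exact test), and 4 of the 6 AAN mice lay above all sham mice. Because the pseudocount weighs on low levels, the sizes depended on it. With a pseudocount of 1 the changes were 1.12 for the *Cdc20* pair, -2.09 for the *Cks2* pair, 0.61 for the *Bub1b* pair, 1.52 for the *Kif20a* pair, 0.70 for the *Kif18b* pair and 0.036 for the *Aurkb* pair. With 0.01 the *Kif20a* pair was at 4.06 and the *Aurkb* pair at 0.59 (adjusted p = 0.0514 in the exact test), and after quantile normalization the *Bub1b* pair was at 1.36. The *Aurkb* pair reached an adjusted p of 0.0476 in the exact test without AAN mouse B614 (0.44), and the *Kif18b* pair was at 1.01 with an adjusted p of 0.0762 in the exact test with a pseudocount of 0.01.

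**Figure D3:**
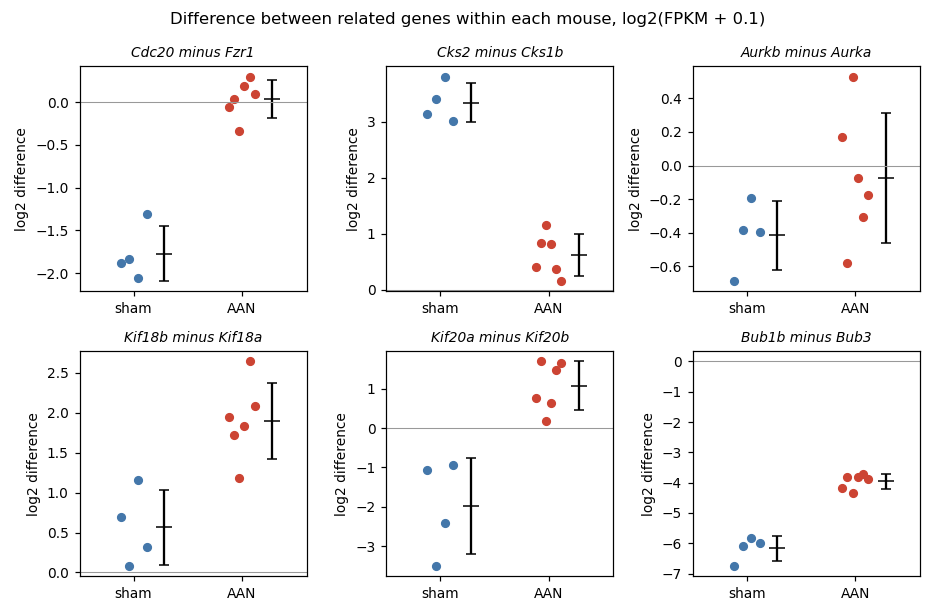
Within-mouse log2 difference of the 6 pairs of related genes on the log2(FPKM + 0.1) scale, 1 point per mouse, with the mean and SD of 4 sham and 6 AAN mice beside the points. The groups are apart in every panel except that of *Aurkb* and *Aurka*.

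Mean levels of the early and of the late genes both lay higher with AAN. The mean log2(FPKM + 0.1) of the 32 early genes was -1.51 ± 0.13 in sham mice (SD, n = 4) and 0.86 ± 0.33 in AAN mice (SD, n = 6), a difference of 2.37 (SE 0.15). For the 13 late genes it was -0.91 ± 0.19 and 1.19 ± 0.25, a difference of 2.10 (SE 0.14). Early minus late was -0.63, -0.49, -0.69 and -0.60 in the sham mice B607, B634, B636 and H249. In the AAN mice it was -0.31 in A483, -0.49 in B614, -0.45 in B630, -0.22 in B639, -0.29 in B642 and -0.25 in B666. The late genes had the higher mean in every mouse, and the range of the AAN mice touched that of the sham mice, since B614 at -0.494 was below B634 at -0.487. The change of 0.27 (SE 0.06) in favour of the early genes depended on the scaling and on the pseudocount, which weighs on the lowest genes. It was 0.38 with a pseudocount of 0.01 and -0.0035 with a pseudocount of 1, and 0.14 when medians were taken in place of means. After quantile normalization it was 0.11 (SE 0.07), and 0.29 (SE 0.06) after the median of ratios. The means include *Kif14*, which was under the filter, and the genes that passed the filter only through the AAN mice. Without *Kif14* the change was 0.20 (SE 0.06), and without *Bub3* and *Fzr1* it was 0.23 (SE 0.06). By counts, 30 of 32 early genes were higher (median log2 fold change 2.47) and 10 of the 12 late genes tested (median 2.52).

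**Figure D4:**
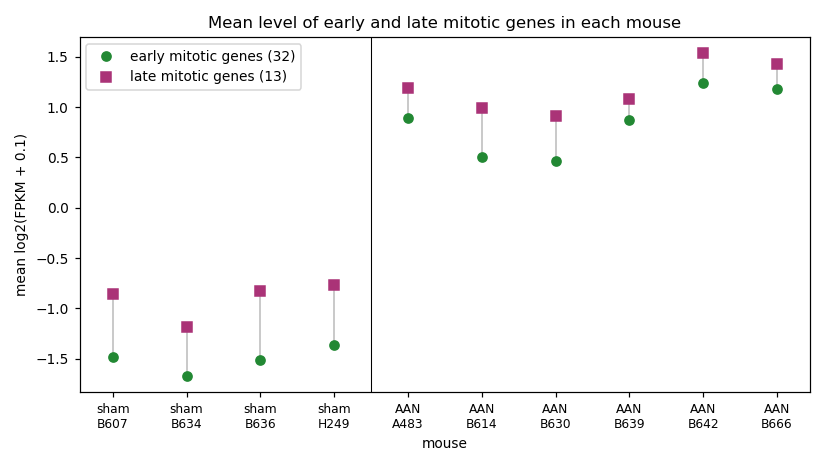
Mean log2(FPKM + 0.1) of the 32 early (circles) and 13 late (squares) mitotic genes in each mouse, with sham mice to the left of the line and AAN mice to the right. Both means are about 2 higher in AAN mice, and the grey lines show the distance of early from late genes within each mouse.

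Among the AAN mice, the order of the levels was similar for many of the 58 genes. B642 had the highest value of the 6 in 35 of the 58 genes and B666 in 13, where B642 was the highest in 17.5% and B666 in 16.1% of all genes tested. The lowest value was in B614 for 27 genes and in B630 for 25, where these mice were lowest in 34.1% and 31.5% of all genes tested. B614 and B630 were thus the AAN mice most often lowest over all genes as well, so their low place is not particular to the mitotic genes. The median distance of the 58 genes from the AAN median on the log2 scale was 0.32 in B642, 0.22 in B666, 0.0046 in A483, -0.038 in B639, -0.34 in B614 and -0.35 in B630. After rescaling by the median of ratios it was 0.35 in B642, 0.14 in B666, -0.31 in B614 and -0.19 in B630. B642 was then the highest in 37 genes (17.8% of all genes), B639 in 9 (16.9%) and B666 in 7 (10.2%), and B614 was the lowest in 31 (35.4%) and B630 in 19 (21.2%). B642 had the smallest mitochondrial share of the FPKM total (21.4%) and B630 the largest of the AAN mice (55.0%), and the part of that share in the order was not tested. By role, B642 stood at 0.62 for the transcription factors and at 0.52 for the passenger complex. B666 was above B642 for the kinetochore genes (0.30 against 0.21) and the spindle motors (0.27 against 0.24), and B642 was highest in the other roles. B614 was lowest for the kinetochore genes (-0.75), and B630 lowest for the kinases (-0.75) and spindle motors (-0.61). After the median of ratios B614 was the lowest for the spindle motors (-0.50, against -0.44 in B630). The ratio of the highest to the lowest AAN value had a median of 2.35 over the 58 genes.

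**Figure D5:**
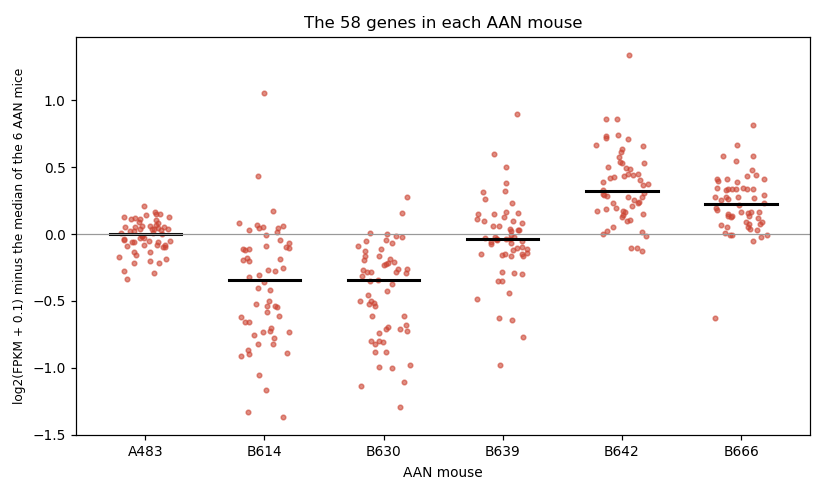
Each point is 1 of the 58 genes in 1 of the 6 AAN mice, as its log2(FPKM + 0.1) minus the median of the 6 AAN mice, with the black bars marking the median over the genes. B642 and B666 lie mostly above 0, and B614 and B630 mostly below.

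Genes that act beside the 58 were counted from lists of their own, to be read against the 35.8% of all genes tested that were higher. Of 12 genes of the mitotic cyclins and their switch 11 were higher, with a median log2 fold change of 2.76. The filter was passed on the sham mean by 10 of these 12 genes, and by the others only through the AAN mice. *Ccnb1* (cyclin B1), the partner of the kinase CDK1 at mitotic entry, was at 0.0426, 0.0235, 0.0226 and 0.0905 FPKM in the sham mice and between 0.385 and 1.19 with a median of 0.585 in the AAN mice (log2 fold change 2.37, SE 0.32). *Ccnb1* passed the filter only through the AAN mice, so that a difference was built into its selection. *Cdk1* was at 0.217, 0.327, 0.255 and 0.375 FPKM in the sham mice and between 1.91 and 5.18 with a median of 2.44 in the AAN mice (log2 fold change 2.89). Cyclin B2 (*Ccnb2*) and *Pkmyt1*, the kinase that holds CDK1 inactive, had the highest AAN means of that list, 9.48 and 6.05 FPKM, with log2 fold changes of 3.41 and 3.82. *Wee1*, the other kinase of that kind, was not called (1.31, SE 0.63, adjusted p = 0.088 from limma).

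Of 31 other kinetochore and checkpoint genes 25 were higher, led in level by *Zwint* and *Cenpt*. *Cenpt*, which links the inner kinetochore to NDC80, rose by 2.43 on the log2 scale to a mean of 9.38 FPKM, whereas *Zwint* had a mean level of 10.2 FPKM in the sham group and 13.9 in the AAN group and was not called (0.45, adjusted p = 0.141 from limma). Of 21 other spindle and cytokinesis genes tested 17 were higher, and the 2 most abundant, *Numa1* (0.87) and *Ncaph2* (0.68), were not called. In the S phase list 23 of 24 genes were higher, with a median log2 fold change of 1.73, among them *Pcna* (1.71), the clamp of the replication fork, and *Rrm1* (1.88). On the sham mean the filter was passed by 20 of the 31 kinetochore and checkpoint genes and 17 of the 21 spindle genes. For S phase it was 21 of the 24, and the other tested genes of these lists passed only through the AAN mice.

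Few genes of the core of the anaphase promoting complex were called at the 2-fold limit. Of 16 genes, the core with the inhibitor *Fbxo5* and the enzyme *Ube2s*, 3 were higher. The median log2 fold change of the 16 was 0.74, near the 0.75 of all genes tested. In 10 of the 16 every AAN mouse was above every sham mouse, as in 40.3% of all genes tested. The 3 called genes were *Anapc2* (1.03), *Anapc4* (1.12) and *Fbxo5* (1.79), and *Anapc13* was at -0.36 (adjusted p = 0.143 from limma). Of 10 cohesin genes 5 were higher, with a median of 1.0, where 35.8% of all genes tested were higher with a median of 0.75. *Rad21*, the subunit that separase cuts, had a mean level of 26.9 FPKM in the sham group and 46.1 in the AAN group and was not called (0.78), nor was the loader *Mau2* (0.63). After the median of ratios the counts were 11 of 12 for the cyclin list, 19 of 31 and 14 of 21 for the other kinetochore and spindle lists, 15 of 24 for S phase, 1 of 16 for the core of the complex, with 1 gene lower, and 0 of 10 for cohesin, where 19% of all genes tested were higher. In the same order they were 9 of 12, 9 of 31, 11 of 21, 11 of 24, 0 of 16 and 0 of 10 after quantile normalization (13% of all genes). With a pseudocount of 1 they were 8 of 12, 7 of 31, 6 of 21, 15 of 24, 1 of 16 and 1 of 10 (17% of all genes).

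Markers of several cell types were higher in the same samples, to be read against the 35.8% of all genes tested that were higher. Of the 8 leukocyte markers 8 were higher, and their summed level was 25.6, 20.1, 33.1 and 33.5 FPKM in the sham mice and 790, 262, 602, 935, 965 and 716 FPKM in A483, B614, B630, B639, B642 and B666, with *Tyrobp* the most abundant. The 8 macrophage markers, led by *C1qa*, were all higher, with sums of 54.6, 38.3, 47.1 and 61.6 FPKM in sham and 1878, 630.3, 1285, 1667, 2167 and 1706 FPKM in the same order of AAN mice. All 9 T cell markers were higher, led by *Cd3g*, with sums of 3.70, 1.11, 2.78 and 2.99 FPKM and 94.9, 83.3, 117, 179, 202 and 100.1 FPKM. Of 7 B cell markers the 5 tested were higher, led by *Cd79b*, with sums of 0.706, 0.786, 1.11 and 1.36 FPKM and 6.71, 5.02, 7.43, 8.89, 12.5 and 5.59 FPKM, and *Blk* was at 0 in every sham mouse. The filter was passed on the sham mean by 2 of these 5 and by the others only through the AAN mice. Only 2 of the 5 were higher after quantile normalization and 3 with a pseudocount of 1, where 13% and 17% of all genes tested were. The 8 fibroblast markers, led by *Col1a1*, were all higher (6 of 8 with a pseudocount of 1), with sums of 16.2, 22.3, 17.8 and 18.9 FPKM and 174, 116, 241, 204, 211 and 264 FPKM. Of these 8, 6 passed the filter on the sham mean.

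Tubule markers changed in both directions. The 9 injured tubule markers were all higher, led by *Spp1*, with sums of 254, 199.7, 248 and 310.3 FPKM in sham mice and 3957, 1549.8, 2289, 3063, 3345 and 3514 FPKM in the same order of AAN mice. Of these 9, 8 passed the filter on the sham mean. Of the 10 proximal tubule markers 7 were lower and none was higher (all 10 lower with the median of ratios), where 3.43% of all genes tested were lower. Led by *Slc34a1*, they had sums of 5314, 2739.7, 3757 and 4159 FPKM in sham mice and 972, 2795, 807, 818, 1269.8 and 1029 FPKM in AAN mice. B614, in which the mitotic genes were low, kept the highest proximal tubule sum of the AAN mice and the lowest leukocyte and injured tubule sums. B630, in which the mitotic genes were also low, had the lowest proximal tubule sum of the AAN mice (807 FPKM). Its leukocyte and injured tubule sums were 602 and 2289 FPKM. Without B614 and the sham mouse B634 together, 52 of the 58 mitotic genes then tested were higher, as were 5844 of all 17204 genes tested. *Kif14* was tested and higher in that setting, and *Fzr1* was not called. None of the 8 endothelial markers was called, but in 4 of them every AAN mouse was above every sham mouse, as in 40.3% of all genes tested. Where 35.8% of all genes tested were higher, so were 1 of 5 podocyte markers and 1 of 4 markers of the inner collecting duct and medulla tested. The latter was *Slc14a2*, which passed the filter only through the AAN mice, so that a difference was built into its selection. After the median of ratios 1 endothelial marker and 2 of the medulla were lower, and no podocyte marker was higher. In that setting 1801 of all 17129 genes tested were lower and 19% were higher. Dividing leukocytes and fibroblasts transcribe the same mitotic genes as dividing tubule cells, and the part of each cell type in the increase was not tested.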

How the data were processed

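RNA-seq of the kidney cortex of 4 sham and 6 AAN mice was analysed. The authors removed rRNA reads, adapters, short and low-quality reads, mapped the paired reads of TruSeq libraries to GRCm38 with HISAT2 and computed FPKM per Ensembl gene with StringTie. The deposited values are these FPKM, which are not counts. The study's own test models counts, and so limma 3.58.1 in R 4.3.3 (lmFit, eBayes with trend and robust, two-sided, Benjamini-Hochberg over all genes tested) was used here on log2(FPKM + 0.1). Fold changes on this scale understate those of low genes. No scaling between mice was added.

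Symbols, positions and exonic lengths came from GENCODE mouse release M21 (GRCm38), which holds 21665 of the 21792 genes. Depth was recovered from genes with 1 transcript and values under 0.3 FPKM, where 94.5% to 96.8% of values were whole fragments within 0.05. Fragment numbers of genes with several transcripts are upper limits, and a value of 0 allows 3 fragments. Members with near-identical or overlapping genes were found with minimap2 2.31-r1302 (at least 100 bases at 95% identity). There are 19 of them, 10 with genes on the opposite strand only (*Cdca8*, *Cenpk*, *Kif20a*, *Kif4*, *Ncapg*, *Nek2*, *Nusap1*, *Plk1*, *Prc1* and *Ube2c*). The others share stretches with genes on the same strand (*Cdc20*, *Cks2*, *Kifc1*, *Mad2l1*, *Mybl2*, *Ncapd2*, *Ndc80*, *Pbk* and *Racgap1*). Strand use and the handling of shared fragments are not given in the sources used here, so these levels are uncertain.

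The members, roles, stages, pathway lists and cell type markers were chosen with earlier results of these data known, and the 6 pairs were taken from these members. All 58 genes are named through their role. The values of the 4 sham mice and the lowest, median and highest of the 6 AAN mice are given for the gene of each role with the highest AAN mean and that with the largest fold change, for *Mki67*, *Top2a*, *Bub3*, *Fzr1* and the genes of the 6 pairs. From each pathway list the 2 genes with the highest AAN mean are named, with *Ccnb1* and *Cdk1*. Other genes, and the values printed for *Plk1*, *Spc25*, *Espl1* and *Kif14*, were chosen after their values were seen. The p-values measure the spread between mice. The alternatives changed the pseudocount (1 or 0.01), the filter (none, or a mean of 1 FPKM), the scaling (median of ratios or quantile normalization), the options of limma (neither trend nor robust) and the fold limit (none), left out each mouse in turn, or kept only mice with B tags (3 sham, 5 AAN). The scripts were tested on simulated data and ran with scipy 1.17.1, pandas 2.3.3, numpy 2.4.6, matplotlib 3.10.9 and Python 3.11.15.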

Additional observations from a re-analysis of the deposited data

Results flagged for a closer look

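Of 66 groups of values examined with Dixon's test at 95%, 2 held a mouse apart from the others of its group, where chance gives 3.3. *Kif11* was at 0.0378 FPKM in the sham mouse B636 and at 0.209 to 0.214 FPKM in the other 3 sham mice. *Kif23* was at 2.51 FPKM in the AAN mouse B614 and at 4.94 to 5.93 FPKM in the other 5 AAN mice.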

How the results depend on the processing

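Of the 52 genes called higher, 27 were called under all 20 alternatives, and 3 more (*Aurkb*, *Kif2c* and *Kif4*) under all but the filter at 1 FPKM, where they were not tested. The number higher was 34 with a pseudocount of 1 and 32 of 37 with the filter at 1 FPKM, where fewer genes were tested, and the number lower was 1 after quantile normalization. The median log2 fold change of the tested members was 1.16 and 3.09 with pseudocounts of 1 and 0.01, 1.91 after the median of ratios and 1.3 after quantile normalization. Over all genes, higher and lower were 2909 and 420 with a pseudocount of 1, 4025 and 489 with that filter, 3261 and 1801 after the median of ratios, 2232 and 2157 after quantile normalization, and 9482 and 1027 without the fold change limit. Early minus late was -0.0035 with a pseudocount of 1, 0.38 with 0.01, 0.11 after quantile normalization and 0.14 with medians, an alternative chosen after seeing the data, as was leaving out B614 and B634 together (52 of 58 higher, with *Kif14* tested and *Fzr1* not called). *Kif18a* was at -0.089 after quantile normalization. The *Kif18b* minus *Kif18a* pair was at 1.01 with a pseudocount of 0.01 (adjusted p = 0.0762 in the exact permutation test). With each mouse left out, *Aurkb* minus *Aurka* was 0.22 to 0.44, passing without B614, and the members higher were 52 to 54. With the B tags alone 53 were higher. The causes were not tested. No paired analysis was possible because the groups share no replicate numbers.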
